A study of Mus musculus with 2 samples.

Results

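The 29 genes described here make, move and sense cholesterol. They were taken by symbol from the transcript tables and traced by gene identifier to 1 row each of the 55536 annotated gene rows. Of these genes, 18 encode enzymes of cholesterol synthesis, 5 encode the machinery that senses sterols, and 6 encode proteins that carry, take up or remove cholesterol. The RNA came from the left cerebral cortex of 2 female mice of the hybrid B6CASTF1/J, 10 days old, with no treatment in the labels, given as biological replicates 1 and 2. Both carry 1 set of chromosomes from a C57BL/6 line and 1 from a CAST line, and no other genotype, age, sex or treatment was compared. Total RNA, 300 ng per library, was sequenced with ERCC spike-ins. The labels call the animals separate females but give both the same donor entry, and no source used here says whether they were littermates.

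Neurons and glia cannot draw cholesterol from the blood, because lipoproteins do not cross the blood-brain barrier, so the brain makes its own. Acetyl-CoA is built up through mevalonate to farnesyl diphosphate, joined into squalene, cyclised to lanosterol and trimmed to cholesterol. The transcription factor SREBP-2 drives most of these genes when membrane sterol is low: SCAP then escorts it from the endoplasmic reticulum to the Golgi for cleavage, and INSIG proteins hold SCAP back when sterol is plentiful. In the postnatal brain demand is high, since growing membranes, synapses and myelin all need cholesterol; APOE particles from astrocytes supply neurons, and CYP46A1 turns surplus neuronal cholesterol into an oxysterol that can leave the brain.

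Promoter sequence was read for the members from RefSeq windows of GRCm38.p6, each spanning 250 bases before and 50 after a start site. Windows were given for 25 of the 29 genes, 35 windows in all; Fdps, Sqle, Fdft1 and Npc1 had none in the table used. Searched on both strands were a relaxed sterol regulatory element (TCACNCCAC), to which SREBPs bind, the E-box CACGTG, which they can also bind, the CCAAT box (CCAAT), bound by NF-Y, and the GC box (GGGCGG), bound by SP1. NF-Y and SP1 are known partners of SREBPs on sterol genes. The 250 bases before the start are shown for the gene with the sterol element, for Mvk, which had the most CCAAT boxes (5), for Mvd with 2, and, for contrast, for a transport gene with none. Capitals mark every match to the 4 motifs, on either strand, so that ATTGG is a CCAAT box and CCGCCC a GC box read on the other strand.
Hmgcs1, chr13:119690101-119690350, plus strand: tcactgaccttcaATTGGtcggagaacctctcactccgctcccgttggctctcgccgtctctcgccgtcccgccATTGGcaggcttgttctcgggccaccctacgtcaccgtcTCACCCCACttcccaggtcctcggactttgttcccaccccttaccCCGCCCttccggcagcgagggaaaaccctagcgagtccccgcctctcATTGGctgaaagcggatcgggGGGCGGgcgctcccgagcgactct
Mvk, chr5:114444019-114444268, plus strand: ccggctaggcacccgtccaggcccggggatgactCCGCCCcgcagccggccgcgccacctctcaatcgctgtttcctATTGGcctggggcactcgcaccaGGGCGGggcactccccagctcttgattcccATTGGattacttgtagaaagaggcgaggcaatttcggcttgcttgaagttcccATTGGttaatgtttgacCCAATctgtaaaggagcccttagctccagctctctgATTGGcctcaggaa
Mvd, chr8:122443423-122443672, minus strand: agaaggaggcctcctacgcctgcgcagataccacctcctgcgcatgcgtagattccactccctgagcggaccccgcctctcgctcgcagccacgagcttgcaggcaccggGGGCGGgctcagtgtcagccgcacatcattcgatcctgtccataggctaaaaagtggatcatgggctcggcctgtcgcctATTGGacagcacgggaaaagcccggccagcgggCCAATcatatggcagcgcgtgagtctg
Abca1, chr4:53159896-53160145, minus strand: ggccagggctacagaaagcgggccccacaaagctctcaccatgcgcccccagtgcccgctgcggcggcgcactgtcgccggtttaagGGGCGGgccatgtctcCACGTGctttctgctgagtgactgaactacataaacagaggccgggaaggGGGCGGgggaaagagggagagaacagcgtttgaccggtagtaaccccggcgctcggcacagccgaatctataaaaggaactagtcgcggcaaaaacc

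The relaxed sterol element was found in 1 member only, Hmgcs1, as TCACCCCAC, its first base at position -137 from the start. It is held by 1.24% of all 32851 windows and 1.41% of 17491 protein-coding genes. The pattern leaves 1 letter free, so sterol elements spelled otherwise were not counted. A gene without a match may still hold one. The CCAAT box stood in 20 of the 25 genes and in 21 of their 35 windows, while 37.4% of all windows and 42.3% of protein-coding genes hold it. By role, it was in 14 of 15 synthesis genes with a window, in 4 of 5 sensing genes, and in 2 of 5 transport genes, Cyp46a1 and Npc2. All 8 genes of the steps from lanosterol to cholesterol had one, and Acat2 was the synthesis gene without. In these counts a gene holds a motif if any of its windows does, and windows were not matched to leading transcripts. The GC box was in 23 of 25 genes, against 49.2% of protein-coding genes and 35.7% of all windows, and the E-box in 6 (Hsd17b7, Sc5d, Dhcr7, Scap, Insig1 and Abca1), against 8.91% of protein-coding genes and 7.15% of all windows. None of the 3 Apoe windows held any of the motifs. The shares over protein-coding genes take in genes not detected here, whereas all members were detected. No share over detected genes was taken, so the motifs are not shown to be particular to the members. These are matches of letters in short windows, and no binding was measured.

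**Figure D1:**
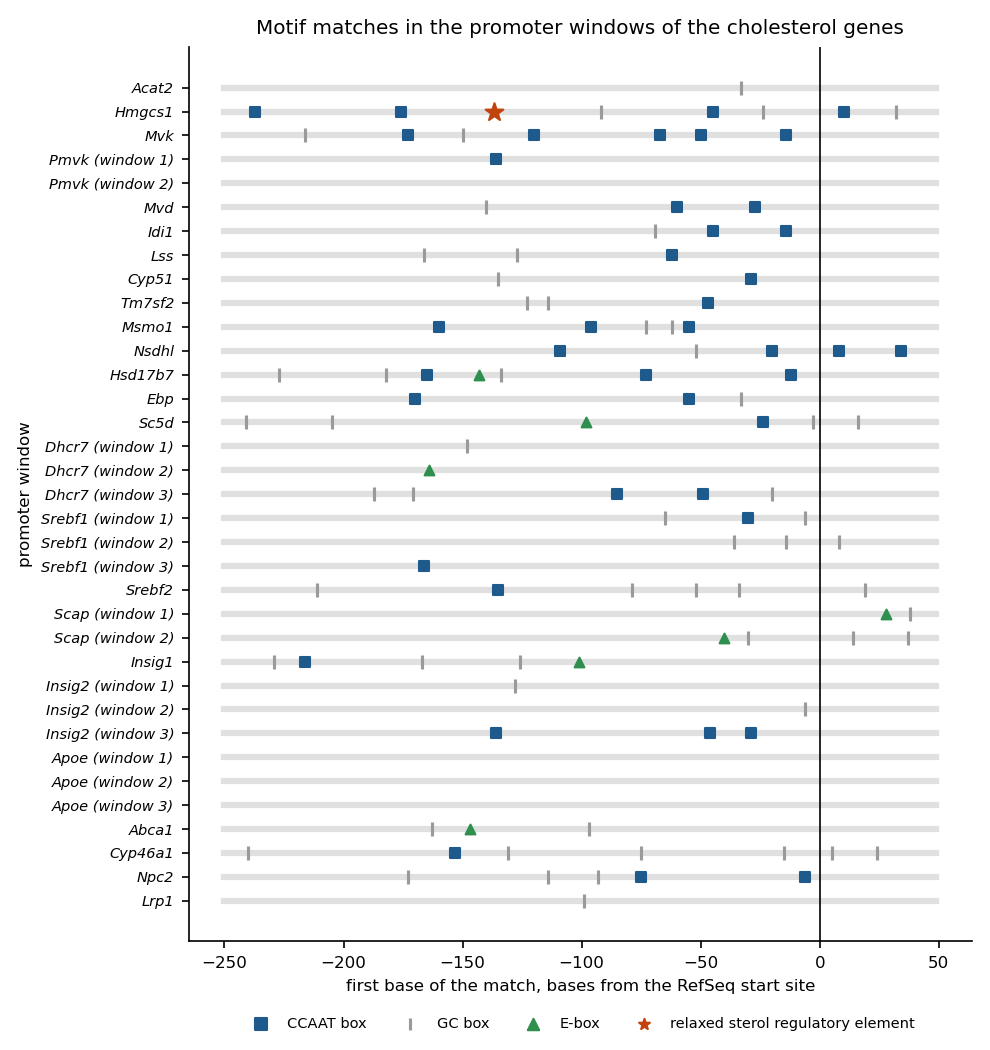
Motif matches in 35 RefSeq promoter windows of 25 genes, ordered by role; the horizontal axis gives the first base of each match in bases from the start site, and each symbol is 1 match on either strand. CCAAT boxes appear in 14 of 15 synthesis genes, though not in Acat2 or in every window of Pmvk and Dhcr7, and Scap, Apoe, Abca1 and Lrp1 have none; the single star is the sterol element of Hmgcs1.

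All 29 genes were expressed. Each was at 1 TPM (a share of all transcripts, corrected for length) or more in both libraries, where 59.1% of the 22015 nuclear protein-coding genes were, and 28 of 29 were at 10 TPM or more, where 37.3% of protein-coding genes were. Hsd17b7 was the exception at 9.09 ± 0.240 TPM (mean ± SD, n = 2, as for all levels that follow), though it too passed 10 TPM in the alignment-free tables (13.2 ± 0.884 TPM) and when TPM was rescaled over protein-coding genes. The median member was at 33.2 ± 2.72 TPM, and the median detected protein-coding gene at 16.5 ± 0.834 TPM. The member median was 59.7 TPM in the alignment-free tables and 66.9 TPM when rescaled over nuclear protein-coding genes, so the TPM given here compare genes within a table and are not fixed amounts. Above that gene in rank stood 24 members, and 5 (Apoe, Hmgcs1, Lrp1, Srebf2 and Fdps) were in the top 10% of detected genes. From Apoe down to Hsd17b7 the levels covered 72.9-fold. Each member rested on 216 to 26861 expected reads per library, out of 29990965 in replicate 1 and 31156256 in replicate 2. As the tissue is a mixture, fewer cells of a type and less RNA per cell cannot be told apart.

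**Figure D2:**
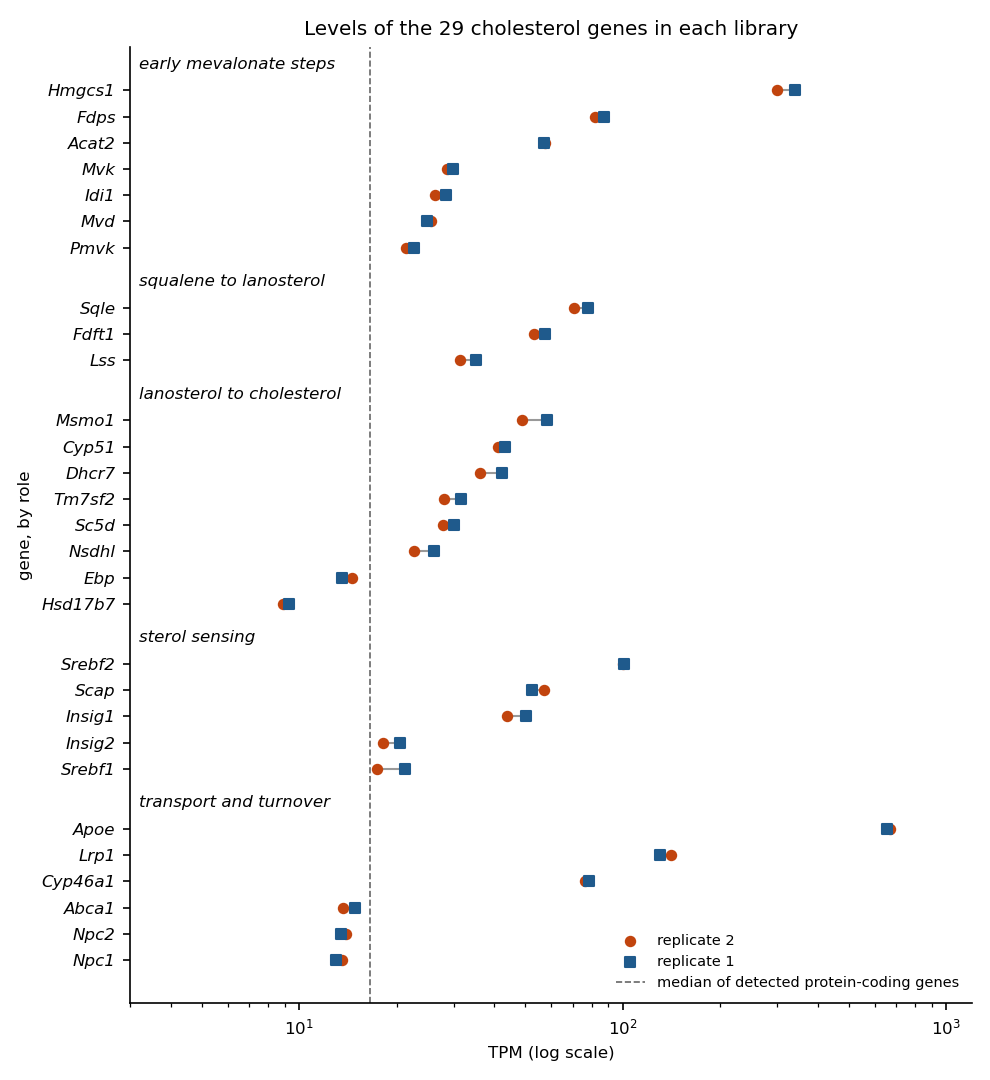
Level of each of the 29 genes in TPM on a log axis, by role and then by mean; circles are replicate 2, squares replicate 1, and the dashed line is the median of detected protein-coding genes (16.5 TPM). Apoe and Hmgcs1 lie far to the right of all others, and Abca1, Ebp, Npc2, Npc1 and Hsd17b7 lie left of the line.

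The early steps, from acetyl-CoA to farnesyl diphosphate, ran unevenly, with 1 enzyme gene far above the others. Hmgcs1, which encodes the cytosolic HMG-CoA synthase (chr13:119690379-119708260, plus strand, mm10), had 299 TPM in replicate 2 and 339 TPM in replicate 1. It was the 163rd most abundant protein-coding gene. Fdps, whose product makes farnesyl diphosphate, the branch point towards sterols, dolichol and protein prenylation, followed at 81.8 TPM in replicate 2 and 87.1 TPM in replicate 1. Acat2, encoding the cytosolic thiolase that makes acetoacetyl-CoA, had 57.6 and 57.0 TPM in replicates 2 and 1. The remaining 4 genes sat close together: the mevalonate kinase gene Mvk at 29.3 ± 0.948 TPM, the isopentenyl diphosphate isomerase gene Idi1 at 27.3 ± 1.57, the mevalonate diphosphate decarboxylase gene Mvd at 25.1 ± 0.495, and the phosphomevalonate kinase gene Pmvk at 22.01 ± 0.905. In both libraries Hmgcs1 exceeded Fdps, by 3.77-fold (log2 ratio 1.91 ± 0.07), and Mvk, by 10.8-fold (3.44 ± 0.08). Both differences were many times the spread between libraries, and the deposited credible intervals, for which no source used here gives a level, did not meet in either library. Acat2 and its mitochondrial counterpart Acat1 (61.3 ± 0.445 TPM) differed by 1.07-fold with intervals that met in both libraries. That pair is less settled than its spread shows, since the alignment-free tables put Acat2 at a log2 ratio of -0.68 to Acat1, against -0.10 in the alignment-based tables.

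The 3 enzymes that commit carbon to sterols had a median of 55.1 ± 3.01 TPM, beside 29.3 ± 0.948 TPM for the 7 earlier ones. Sqle, encoding squalene epoxidase, a rate-limiting enzyme, had 70.6 TPM in replicate 2 and 78.3 TPM in replicate 1. Fdft1, encoding squalene synthase, had 53.0 and 57.3 TPM, and Lss, encoding lanosterol synthase, 31.3 and 35.2 TPM, in the same order. Both neighbours in this chain were ordered alike in both animals: Sqle exceeded Fdft1 by 1.35-fold (log2 0.43 ± 0.03) and Lss by 2.24-fold (log2 1.16 ± 0.01), with intervals apart. These are whole-gene levels. By alignment, forms not annotated as protein-coding held 71.3% of Lss TPM in replicate 2 and 70.0% in replicate 1. For Sqle they held 1.18% and 1.79%. The ratio to Lss is therefore not a ratio of coding RNA. Fdft1 was below Fdps, the enzyme before it, by 1.53-fold (log2 -0.62 ± 0.01).

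From lanosterol to cholesterol the median was 29.3 ± 2.05 TPM over 8 genes. The C4-demethylation pair Msmo1, the sterol C4-methyl oxidase, and Nsdhl, the C4 decarboxylase, had 53.5 ± 6.89 and 24.3 ± 2.43 TPM. Their partner Hsd17b7, the 3-ketosteroid reductase of the same complex, was lowest of all members, at 8.92 TPM in replicate 2 and 9.26 TPM in replicate 1, and lay 2.65-fold below Nsdhl (log2 -1.40 ± 0.11, intervals apart in both libraries). Cyp51, the lanosterol 14-alpha-demethylase gene, had 42.1 ± 1.45 TPM, Dhcr7, which encodes the reductase that removes the double bond of 7-dehydrocholesterol, 39.3 ± 4.29, Sc5d, the lathosterol oxidase gene, 28.9 ± 1.59, and Ebp, the sterol isomerase gene, 14.1 ± 0.700. Dhcr7 exceeded Sc5d, which encodes the enzyme just before it, by 1.35-fold (log2 0.44 ± 0.08). The C14 reduction can be carried out by products of Tm7sf2 or of Lbr, better known as the lamin B receptor. Tm7sf2 was at 29.7 ± 2.52 TPM and Lbr at 6.03 ± 0.0566 TPM, 4.85-fold apart (log2 2.28 ± 0.14), and 1.85 on the log2 scale in the alignment-free tables. These are whole-gene levels, and Tm7sf2 shares 532 exonic bases with Vps51 on the same strand. Forms of Tm7sf2 not annotated as protein-coding held 12.5% in replicate 2 and 18.8% in replicate 1 by alignment. In the alignment-free tables they held 33.4% and 33.9%.

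Among the sensing genes, the SREBP-2 gene led. Srebf2 had 100.01 TPM in replicate 2 and 100.56 TPM in replicate 1, and Srebf1, whose product acts mainly on fatty acid genes, 17.3 and 21.2 TPM. The ratio of Srebf2 to Srebf1 was 5.21-fold (log2 2.38 ± 0.20). It too is a ratio of whole-gene levels and not of coding RNA. By alignment, forms not annotated as protein-coding held 45.2% of Srebf1 TPM in replicate 2 and 49.3% in replicate 1. For Srebf2 they held 10.6% and 11.9%. Insig1, itself an SREBP target, had 44.0 TPM in replicate 2 and 50.3 TPM in replicate 1, against 18.1 and 20.5 TPM for Insig2, which is less dependent on SREBP, a ratio of 2.43-fold (log2 1.28 ± 0.01). Scap was at 57.1 and 52.5 TPM. Scap and Insig1 could not be ordered with the same firmness, since their intervals were apart in 1 library only (log2 0.22 ± 0.22). All 8 context genes for SREBP processing and sterol-dependent degradation were detected, with a median of 19.1 ± 0.976 TPM. The 9 fatty acid genes known as SREBP-1 targets had a median of 71.9 ± 3.56 TPM, with the stearoyl-CoA desaturase gene Scd2 (297 ± 11.9 TPM) highest and the elongase gene Elovl6 (21.2 ± 1.77 TPM) lowest.

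Transport and turnover held the most abundant member and 3 of the 5 least abundant. Apoe, the main apolipoprotein of the brain (chr7:19696109-19699188, minus strand, mm10), had 672 TPM in replicate 2 and 654 TPM in replicate 1 and was the 39th most abundant protein-coding gene. Lrp1, a large endocytic receptor for APOE particles, had 140 and 130 TPM, and Cyp46a1, the cholesterol 24-hydroxylase gene of neurons, 76.4 and 78.6 TPM. Abca1, which loads lipid onto APOE, was at 14.2 ± 0.856 TPM, and the late endosomal partners Npc2 and Npc1, which hand cholesterol out of the lysosome, at 13.7 ± 0.339 and 13.3 ± 0.389 TPM. Apoe exceeded Abca1 46.3-fold (log2 5.53 ± 0.11) and Lrp1 4.90-fold (log2 2.29 ± 0.05). In the alignment-free tables the log2 ratio of Apoe to Lrp1 was 2.67. By alignment, forms not annotated as protein-coding held 37.0% of Lrp1 TPM in replicate 2 and 34.3% in replicate 1. For Apoe they held 0.610% and 0.255%, so the ratio to Lrp1 is not one of coding RNA. Cyp46a1 exceeded Abca1 5.42-fold (log2 2.44 ± 0.06). Npc2 and Npc1 stood 1.03-fold apart with intervals that met in both libraries.

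Context genes around the members were mostly detected as well. Of 10 lipoprotein receptor and carrier genes, all detected, Clu, the clusterin gene, was highest at 182 ± 0.0849 TPM and Abca7 lowest at 4.69 ± 0.212 TPM. Of 6 genes of the liver X receptors and their targets, 5 were detected, with the receptor partner Rxrb highest (38.6 ± 0.375 TPM) and Nr1h3, the gene of LXR alpha, lowest (0.715 ± 0.0212 TPM). Of 9 other sterol enzyme genes 7 were detected, with Acat1 highest; the lowest was Cyp27a1, a sterol 27-hydroxylase gene, at 0.410 ± 0.0566 TPM. All 7 genes of intracellular sterol transfer were detected, from Gramd1a at 65.9 ± 3.22 TPM to Gramd1c at 1.14 ± 0.0424 TPM, and both encode proteins that carry cholesterol from the plasma membrane.

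Across the whole order of levels, 12 of 28 neighbouring genes had library ranges that did not touch, and 16 had ranges that overlapped. The top 6 places, Apoe, Hmgcs1, Lrp1, Srebf2, Fdps and Cyp46a1, were each clear of the next gene down, apart from Cyp46a1, which overlapped Sqle. From Acat2 to Insig1 and from Lss to Idi1 the ranges of all neighbours overlapped. A range spans both libraries, so genes with overlapping ranges can still keep their order within each. Msmo1 was above Insig1, and Lss above Tm7sf2, in both libraries. In the 17 gene pairs compared, the log2 ratio was 0.32 or more either way in both libraries for 14, and the intervals were apart in both libraries for 14; Scap to Insig1, Npc2 to Npc1 and Acat2 to Acat1 were the others in both counts.

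**Figure D3:**
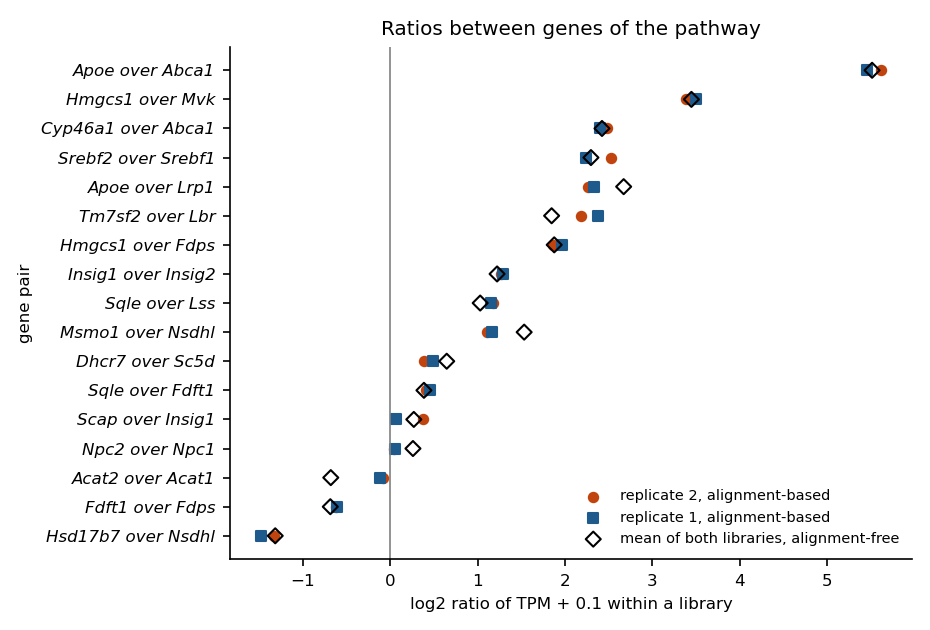
The log2 ratio of TPM + 0.1 in 17 gene pairs within each library; circles are replicate 2, squares replicate 1, and open diamonds the mean of both libraries in the alignment-free tables. The ratios run from -1.48 (Hsd17b7 over Nsdhl, replicate 1) to 5.61 (Apoe over Abca1, replicate 2), and the diamonds lie outside the range of the libraries for 11 of 17 pairs, among them Acat2 over Acat1, Msmo1 over Nsdhl and Npc2 over Npc1.

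Between the animals, no member passed the limit used here. In reads scaled by TMM factors, 0 of 29 were apart by a log2 ratio of 0.32 or more. Of 16459 genes with a mean of 20 reads or more, 15.6% were. Of 11007 genes with a mean of 200 reads or more, a floor that all members passed, 4.12% were. For 29 genes, 0 is near that second share, so it is not read as a trait of the members. The 0 of 29 is a count with no test, since an exact two-sided test of 2 animals has 0.5 as its smallest p. The furthest apart was Ebp, on 262 reads in replicate 2 and 216 reads in replicate 1, a ratio of 1.20-fold (log2 0.26). The median log2 ratio of replicate 2 over replicate 1 was 0.02 for the members and 0.02 for 13933 protein-coding genes. Of the members 18 of 29 were higher in replicate 2, as were 56.2% of protein-coding genes, and the 18 synthesis enzymes split into 10 higher and 8 lower. All 6 transport and turnover genes were higher in replicate 2, with a median log2 ratio of 0.12, and between 0.02 (Abca1) and 0.18 (Lrp1). By TPM as deposited 4 of these 6 were higher, and Abca1 and Cyp46a1 were lower.

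The sign of such small ratios depended on the scaling. By TPM as deposited, 21 of 29 members and 15 of 18 synthesis enzymes were lower in replicate 2; on that scale the median of all genes moved by -0.11 and that of protein-coding genes by -0.09. Nuclear protein-coding genes held 48.5% of TPM in replicate 2 and 50.8% in replicate 1. Over 6 scalings, 8 members were higher in replicate 2 in all (Acat2, Apoe, Ebp, Lrp1, Mvd, Npc1, Npc2 and Scap), 10 were lower in all (Hmgcs1, Insig1, Insig2, Lss, Msmo1, Nsdhl, Sc5d, Sqle, Srebf1 and Tm7sf2), and 11 changed sign. No member passed 0.32 under any of the 6. Shares of protein-coding genes lower by TPM as deposited, or with the same sign in all 6, were not taken. The counts are therefore not read as a trait of the members. With TMM factors, 15 of 29 members lay above the median log2 ratio of protein-coding genes. It was also 15 with DESeq2 size factors, spike-in scaling, TPM as deposited and TPM rescaled over protein-coding genes. By alignment-free levels it was 18.

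The libraries did differ in myelin genes. All 6 markers of myelinating oligodendrocytes, the cells that wrap axons in cholesterol-rich membrane, were higher in replicate 2 by more than that limit, from 1.72-fold (Cnp) to 2.81-fold (Mobp), and their summed level was 390 TPM in replicate 2 and 196 TPM in replicate 1. Mbp, the myelin basic protein gene, was highest of them, with 181 TPM in replicate 2 and 90.02 TPM in replicate 1. Mag was 2.66-fold and Mog, the lowest at 3.18 ± 1.91 TPM, 2.67-fold higher in replicate 2. The summed level of the 18 synthesis enzymes was 922 TPM in replicate 2 and 1014 TPM in replicate 1, and 0 of them passed the limit. That sum is in TPM as deposited, on which scale the median log2 ratio of all genes was -0.11. In TMM-scaled reads the median log2 ratio of these enzymes was 0.002, with 10 higher and 8 lower in replicate 2. The 3 haemoglobin genes were 1.27-fold (Hbb-bs), 1.35-fold (Hba-a1) and 1.34-fold (Hba-a2) higher in replicate 2, with 774 TPM in sum in replicate 2 and 630 TPM in replicate 1. The 4 markers of oligodendrocyte precursors summed to 123 TPM in replicate 2 and 122 TPM in replicate 1, from Olig1 (48.0 ± 0.742 TPM) to Cspg4 (10.8 ± 0.460 TPM). These sums too are in TPM as deposited, and in TMM-scaled reads the markers had a median log2 ratio of 0.15. Among them Gpr17, a gene of cells about to mature, was 1.32-fold higher in replicate 2, and among the context genes Gramd1c was 1.26-fold higher. The part of these cells in the members' levels was not tested.

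Other cell types were present in both libraries at like levels. The 5 neuron markers summed to 2355 TPM in replicate 2 and 2395 TPM in replicate 1, led by Tubb3 (677 ± 12.4 TPM), with Rbfox3 lowest (136 ± 2.63 TPM). The 6 astrocyte markers summed to 1121 TPM in replicate 2 and 1108 TPM in replicate 1, from Slc1a2 (660 ± 17.0 TPM) to Aldh1l1 (25.2 ± 4.58 TPM). Microglia markers summed to 89.1 and 93.8 TPM and endothelial markers to 86.0 and 86.0 TPM, in the same order. All these sums are in TPM as deposited, on which scale the median log2 ratio of all genes was -0.11. In TMM-scaled reads the median log2 ratio was 0.09 for neuron markers and 0.12 for astrocyte markers. It was 0.05 for microglia markers and 0.13 for endothelial markers. P2ry12 (31.005 ± 1.03 TPM) and C1qa (14.7 ± 0.141 TPM) were the highest and lowest microglia markers, and Cldn5 (42.0 ± 0.0283 TPM) and Pecam1 (9.41 ± 0.417 TPM) the endothelial ones. No marker in these 4 lists passed 0.32 between the libraries in TMM-scaled reads, and none was at 0; Aldh1l1 was at 28.4 TPM in replicate 2 and 21.96 TPM in replicate 1, but had a log2 ratio of 0.15 in those reads.

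**Figure D4:**
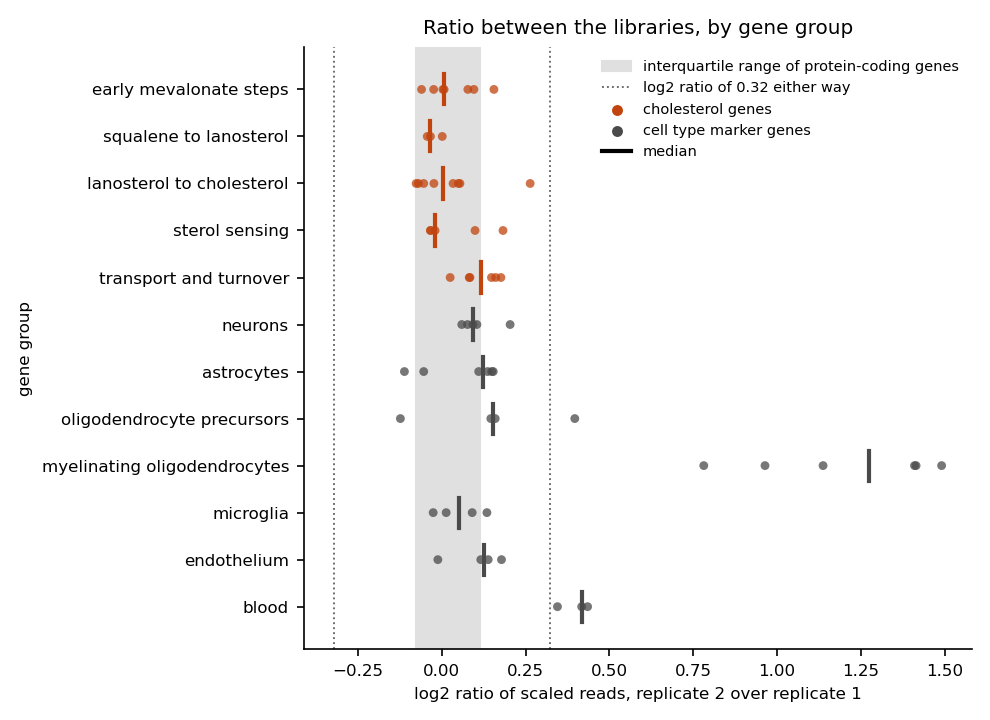
The log2 ratio of TMM-scaled reads, replicate 2 over replicate 1, for each gene (points) and each list (bars, medians); the grey band is the interquartile range of protein-coding genes and the dotted lines are at 0.32 either way. All cholesterol genes lie between the dotted lines, and the 6 myelin markers lie from 0.78 to 1.49.

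Transcript shares say which annotated form carries a gene's RNA. The deposited alignment-based and alignment-free tables named different leading transcripts, in both libraries, for 7 of 28 members at 10 TPM or more, which is 25% of them, near the 18.5% of 7652 protein-coding genes that did. Between libraries the leading form by alignment differed for 1 of 28 members, Srebf1, and for 8.09% of those genes. A single transcript held 50% or more of the gene's TPM in both libraries for 25 of 29 members in the alignment-based tables and 22 in the alignment-free tables, against 67.7% and 60.5% of protein-coding genes at 10 TPM or more. For Apoe, the alignment-based tables gave 88.3% in replicate 2 and 90.2% in replicate 1 to Apoe-209, and the alignment-free tables gave 94.9% and 95.3% to Apoe-205; these forms share their whole coding sequence of 933 bases. Fdps-201 held 91.9% and 90.3% in the alignment-based tables, and Fdps-203 held 78.8% and 80.9% in the alignment-free tables, again with the same coding exons. Hmgcs1-202 and Hmgcs1-201 also share their coding exons: the alignment-based tables gave Hmgcs1-202 68.3% and 61.8%, and the alignment-free tables gave Hmgcs1-201 74.8% and 78.6%. In these 3 genes the leading forms differed outside the coding exons.

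In other members the leading forms differed in coding sequence. Mvd-201, which encodes the full decarboxylase (1203 coding bases), held 98.03% of Mvd in replicate 2 and 99.03% in replicate 1 by alignment, and the alignment-free tables gave 100% in both libraries to Mvd-202, a form annotated for nonsense-mediated decay with 234 coding bases. The forms are 1756 and 1833 bases long, and 53 of the 31-base words of Mvd-201 and 130 of those of Mvd-202 are missing from the other. Acat2-201 (1191 coding bases) held 45.5% in replicate 2 and 67.7% in replicate 1 by alignment, where Acat2-204 (1047 coding bases) was close behind in replicate 2, at 44.4%, and further off in replicate 1, at 22.6%. Acat2-204 led in the alignment-free tables, at 50.2% and 37.2%. For Ebp, the alignment-based tables favoured the short Ebp-203 (365 coding bases; 47.1% and 41.9%) and the alignment-free tables the long Ebp-201 (690 coding bases; 51.5% and 45.1%). Tm7sf2-201 held 77.8% in replicate 2 and 75.1% in replicate 1 by alignment, but 8.71% and 31.1% in the alignment-free tables, where Tm7sf2-210 led replicate 2 with 30.4%.

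Srebf1 had no settled leading form. The gene makes the protein variants SREBP-1a and SREBP-1c from separate first exons. Srebf1-201, with its first exon at chr11:60220453-60220604 (minus strand, mm10), held 37.1% in replicate 2 and 13.3% in replicate 1 by alignment. Srebf1-207, whose first exon lies downstream at chr11:60210336-60210465, held 14.9% and 16.6%. Srebf1-203, starting further downstream still, held 2.89% in replicate 2 and 20.9% in replicate 1. These shares rested on 552 and 221 expected reads for Srebf1-201, 162 and 202 for Srebf1-207, and 40.5 and 328 for Srebf1-203. The leading form was Srebf1-201 in replicate 2 in both kinds of table; in replicate 1 it was the non-coding Srebf1-204 by alignment (25.9%) and the non-coding Srebf1-210 without it (29.7%). Both are short, and the alignment-based tables gave them 27.6 and 11.9 expected reads in replicate 1. By contrast Srebf2-201 held 72.2% and 72.0% by alignment and 74.8% and 72.5% without it, in replicates 2 and 1.

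Counted next are forms not annotated as protein-coding, among them nonsense-mediated decay forms with some coding bases. They took over 20% of TPM in both libraries for 5 of 29 members by alignment. For protein-coding genes at 10 TPM or more, the share was 30%. In the alignment-free tables it was 7 members, against 34.4% of those genes: Lss, Srebf1 and Ebp again, with Mvd, Tm7sf2, Npc2 and Fdft1. Lss was foremost, with 71.3% in replicate 2 and 70.0% in replicate 1; its coding form Lss-201 held 28.0% and 25.7%, and 27.9% and 26.1% in the alignment-free tables. Lss-202, a processed transcript of 352 bases, led by alignment (29.3% and 27.5%), and Lss-203, with a retained intron, led without it (46.1% and 44.1%). Lss-202 had 0% without alignment in both libraries, and Lss-203 had 4.98% and 10.9% with it. TPM is corrected for length. Lss-202 and Lss-203 (641 bases) are short beside Lss-201 (4667 bases), so the same TPM rests on fewer reads. The others by alignment were Srebf1 (45.2% and 49.3%), Lrp1 (37.0% and 34.3%), Ebp (26.8% and 36.6%) and Cyp51 (22.8% and 23.1%, mostly Cyp51-204, a form with a retained intron). The median over the 28 members was 8.54% in replicate 2 and 11.3% in replicate 1, and over 8202 protein-coding genes at 10 TPM or more 9.31% and 11.0%. The remaining members with a second form at 10% or more kept the same leader in both kinds of table. Coding leaders among these were Abca1-201, Cyp46a1-201, Cyp51-201, Dhcr7-202, Fdft1-201, Hsd17b7-201, Insig1-201, Insig2-201, Lrp1-201, Msmo1-201, Mvk-201, Npc1-201, Npc2-201, Pmvk-201, Scap-201 and Sc5d-202, the last with Sc5d-201 sharing the same number of coding bases (897) at 34.3% and 37.6%.

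**Figure D5:**
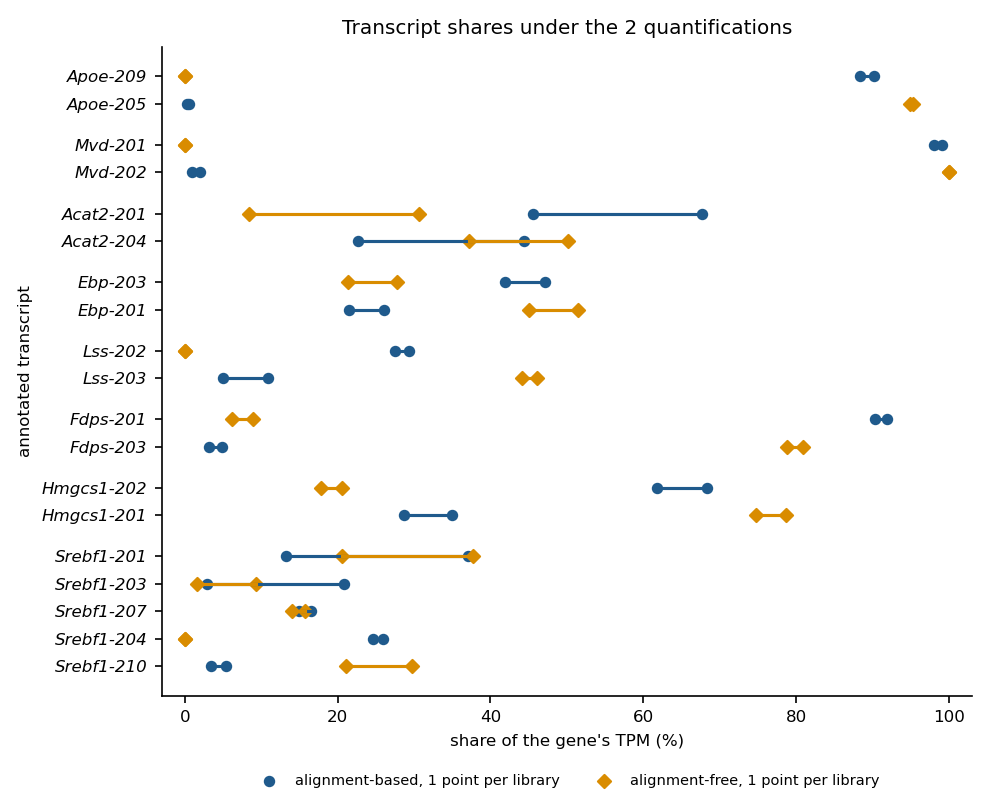
Share of a gene's TPM, in percent, held by the transcripts that led in either kind of table for 7 genes, and by 5 transcripts of Srebf1; blue circles are the alignment-based and orange diamonds the alignment-free tables, 1 point per library, joined by a line. Within a kind of table the libraries lie close for Apoe, Mvd, Fdps and Hmgcs1, while circles and diamonds sit at opposite sides.

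Gene levels were closer between the kinds of table than transcript shares. After scaling each over nuclear protein-coding genes, the alignment-free level was 0.902 of the alignment-based one for the median member in replicate 2 and 0.926 in replicate 1, and 0.933 and 0.939 for the median of 8202 protein-coding genes. Tm7sf2 was furthest up, at 1.39 in replicate 2 and 1.22 in replicate 1, and Lrp1 furthest down, at 0.689 and 0.698. Exons of 10 of 29 members overlapped those of another annotated gene, as did those of 29.7% of protein-coding genes. The same-strand overlaps were Fdps with Gm43738 (1124 bases), Tm7sf2 with Vps51 (532 bases) and Srebf1 with Mir6922 (66 bases), so reads there can belong to either gene. Opposite-strand overlaps touched Hmgcs1, Fdft1, Scap, Cyp51, Lss, Idi1, Srebf1 and Npc1, from 90 bases (Npc1 with Gm15956) to 985 bases (Scap with 5830462I19Rik), and no source used here says whether counting used strand. Expected reads were not whole numbers for 5 members, Fdps, Acat2, Fdft1, Tm7sf2 and Idi1. The deposited TPM of Apoe, Hmgcs1 and Sqle lay above the upper bound of its own credible interval in both libraries.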

How the data were processed

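Total RNA sequencing of 2 libraries of 1 group was analysed. The deposited gene and transcript tables hold expected counts, TPM and bounds of a credible interval for TPM; per the README files they rest on reads aligned to the transcriptome (mm10, annotation M21). The percent of a gene held by each transcript is deposited beside them, per the file headers. A second deposited transcript table holds estimated counts and TPM found without alignment, per the README files, and was summed per gene here. No source used here names the tools, the strand setting or the interval level. Reads of a hybrid were set against mm10, so alleles unlike it may be undercounted, and none was separated.

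Levels are means ± SD of TPM. Ratios between libraries used expected counts, with 0.5 added, scaled by TMM factors (edgeR 4.0.16, R 4.3.3), in genes with a mean of 20 reads or more, with a limit of 0.32 on the log2 scale; the step was tested on simulated data with 200 changed genes. Pair ratios used TPM + 0.1. Spike-ins, 0.401% of replicate 2 and 0.413% of replicate 1, entered an alternative only, as did size factors of DESeq2 1.42.0. Python 3.11.15, pandas 2.3.3 and matplotlib 3.10.9 served elsewhere. Coordinates come from GENCODE M21 and promoter windows from RefSeq (GRCm38.p6), matched by symbol. The members, gene lists and limits were chosen with earlier results of these data known. Every member is named with its level, and of each context or marker list the highest and lowest gene and those past the limit. Some genes of the pathway and of these lists are not reported here. The SD describes 2 animals only, and counting error is not added to it.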

Additional observations from a re-analysis of the deposited data

How the results depend on the processing

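Levels in TPM depend on which transcripts enter the sum. For the median member, reported at 33.2 TPM, the alignment-free tables gave 59.7 TPM and rescaling over nuclear protein-coding genes 66.9 TPM. Under the same alternatives, in that order, the medians were 42.4 and 58.9 TPM for the early mevalonate steps, 78.4 and 111 TPM from squalene to lanosterol, 50.4 and 59.0 TPM from lanosterol to cholesterol, 74.0 and 94.8 TPM for sterol sensing, and 67.2 and 92.5 TPM for transport and turnover. With 2 libraries, leaving out 1 must move a median by less than its SD, so it says nothing of stability. With scalings added after the data were seen, members higher in replicate 2 numbered 18 as reported, 8 by TPM as deposited and 12 by TPM rescaled over protein-coding genes; synthesis enzymes numbered 10 as reported, and 3 and 5 on those scales. The cause of these shifts was not tested, and the shares of protein-coding genes higher on those scales were not taken. CCAAT boxes were in 20 genes on both strands and in 10 on the forward strand only, which follows from reading 1 strand. Of protein-coding genes, 42.3% and 24.5% held one in these searches. The count of members past 0.32 between libraries was 0 with DESeq2 size factors, spike-in scaling, no filter on low counts, a 1.5-fold limit and the alignment-free tables. All 29 members were also at 5 TPM or more, and 22 were at 20 TPM or more. The shares of protein-coding genes at these 2 limits were not taken, so these counts are not read as a trait of the members. Of 17 pair ratios, 10 moved by their SD or more in the alignment-free tables and 4 with a pseudocount of 1, and none changed sign. No paired analysis was possible because there is 1 group. Ebp rested on the fewest reads, 262 in replicate 2 and 216 in replicate 1, and every SD rests on 2 animals.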
